A study of Mus musculus with 2 samples.

Results

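The replication-dependent and linker histone genes of the mouse were described in primary fibro-adipogenic progenitors (FAPs), stromal muscle cells with the capacity to become adipocytes, sorted here from hind limb muscle. They were chosen by gene symbol, with earlier results of these data known. The H1f, H2ac, H2bc, H3c and H4c genes and those still named Hist1h to Hist4h gave 65 of the 26082 genes in the deposited tables. Of these, 8 belong to the linker class H1, 16 to H2A, 17 to H2B, 12 to H3 and 12 to H4. The series holds 2 libraries of poly(A)-selected RNA, 1 from FAPs transfected with a plasmid that overexpresses TGFBR3 and 1 from FAPs given the vector alone. The labels give growth medium with 20% FBS and, for adipogenic induction, a medium to which insulin (10 μg/ml), dexamethasone (0.25 μM) and IBMX (0.5 mM) were added, but not which of them the sequenced cells were in. Mouse strain, age and the number of animals behind each culture are not given in the labels, and the 2 libraries are not described as clones or pools.

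Histones are the proteins around which DNA is wound. Pairs of H2A, H2B, H3 and H4 form the core of the nucleosome, and H1 binds the linker DNA between cores. Most of these genes lie in clusters and are expressed in S phase, when new chromatin is built. Their mRNAs are unusual in ending in a conserved stem-loop, bound by the protein SLBP, instead of a poly(A) tail. Selection on oligo(dT) therefore loses most such transcripts, and a value here covers only the RNA that passed that selection. Linker genes such as H1f0 are known to be polyadenylated and to be expressed outside S phase, and some replication-dependent genes also have polyadenylated forms.

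The stem-loop is shown because it is what sets these mRNAs apart from nearly all others. It was searched for as GGC, any base, CTTTT, any base, AG, any base and GCC, on the sense strand of the annotated transcripts after the stop codon (GENCODE M21, mm10), and was found in 37 of the 65 genes. Its first base lay 21 to 58 bases after the stop codon, with a median of 31. In the first 100 bases after the stop codon it was present in 19 of the 29 members annotated that far (65.5%) and in 7 of 20184 other coding genes (0.0347%). A gene without a match may be annotated only up to its stop codon. In the following 26-base windows the capitals mark the stem-loop.
H1f2, chr13:23739507-23739532, plus strand: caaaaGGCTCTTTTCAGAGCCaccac
H2bc8, chr13:23571838-23571863, plus strand: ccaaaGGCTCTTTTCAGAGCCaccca
H2ac4, chr13:23751567-23751592, plus strand: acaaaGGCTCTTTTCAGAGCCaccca
H3c6, chr13:23561898-23561923, minus strand: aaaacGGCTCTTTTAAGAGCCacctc
H2ac20, chr3:96220413-96220438, minus strand: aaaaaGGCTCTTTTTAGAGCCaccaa
H4c8, chr13:23531453-23531478, plus strand: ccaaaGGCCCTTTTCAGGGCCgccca
H4c9, chr13:22040961-22040986, minus strand: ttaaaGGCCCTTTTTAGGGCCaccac
The core of H1f2, H2bc8 and H2ac4 was found in 23 genes of the H1, H2A, H2B and H3 classes. That of H3c6 was found in 5 genes of the H2B and H3 classes, and that of H2ac20 in this gene alone. Both H4 cores, of 6 and 2 genes, were found in H4 genes alone.

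The library labelled TGFBR3 overexpression, here the overexpression library, held 62321027 counts. That labelled vector control, here the control library, held 83779203. Tgfbr3 itself was not raised in the library named for it. It had 16372 counts and an FPKM of 36.87 in the overexpression library and 21245 counts and an FPKM of 35.13 in the control library, a log2 ratio of 0.07 (95% counting interval, 0.04 to 0.10). FPKM is the count scaled by exon length and library size. The names of the libraries are therefore used as labels only. Whether RNA from the plasmid would be counted in the Tgfbr3 row was not tested. The paper also measured TGFBR3 by real-time PCR in FAPs given the plasmid or the vector, which is not compared here. The FAP marker Pdgfra was present in both, at an FPKM of 30.48 and 32.60, and of 8 FAP markers only Pi16 was under an FPKM of 1 in both. The FAP list was not level, with 6 of 8 lower and log2 ratios of −1.12 for Dpt, −0.89 for Col1a1 and 0.52 for Ly6a. Of 5 macrophage markers, Adgre1 and Tyrobp had no counts in either library, C1qa and Ptprc had 8 and 4 in the control library alone, and Csf1r had 182 and 210, an FPKM of 0.46 and 0.39. No endothelial marker of 5 reached an FPKM of 1. Of 5 muscle markers, Myog and Ckm had at most 8 counts, and Pax7, Myod1 and Myf5 had no row. All 5 adipocyte markers were lower in the overexpression library, with Adipoq at an FPKM of 5.69 against 13.01, and the part of these marker differences in the histone values was not tested. In bulk RNA, fewer cells of a type and less RNA per cell cannot be told apart.

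Differences are given as the log2 ratio of (FPKM + 1), overexpression over control, and a gene was called at 1 or −1, which is 2-fold. With 1 library per condition there is no test. The intervals are exact Clopper-Pearson intervals at 95% on the counts and cover counting error only. The floor was set at 3 counts, and 64 of the 65 members were above it in at least 1 library. The exception, H2bc18, had counts of 0 and 1. A fold is the ratio of a gene's share of the counts in the overexpression library to that in the control library, with no pseudocount.

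Most histone genes were higher in the overexpression library. Of the 64 members, 56 were higher and 8 lower, where 62% of 21364 genes were higher. At least 2-fold higher were 11 members, where 1.73% of all genes were called in that direction, and 2 were at least 2-fold lower, against 0.58%. The median log2 ratio was 0.45 over the members and 0.06 over all genes. Among expressed genes the median was 0.13, and relative to it 47 members were higher and 17 lower, with a median of 0.33. This centring takes the same 0.13 from low genes, whose ratios are damped, so their centred direction is less certain. For 5 of the 11 higher genes and for both lower genes the whole counting interval lay past the threshold. The pseudocount damps the ratios of low genes, and 28 members were under an FPKM of 1 in both libraries. By the plain ratio of shares in the 56 members above the floor in both libraries, 23 were at least 2-fold higher, where 13% of 17985 genes were called, and 1 was lower, against 4.35%. Their counting intervals lay wholly above 1 in 35, against 47% of genes, and wholly below 1 in 2, against 24%.

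**Figure D1:**
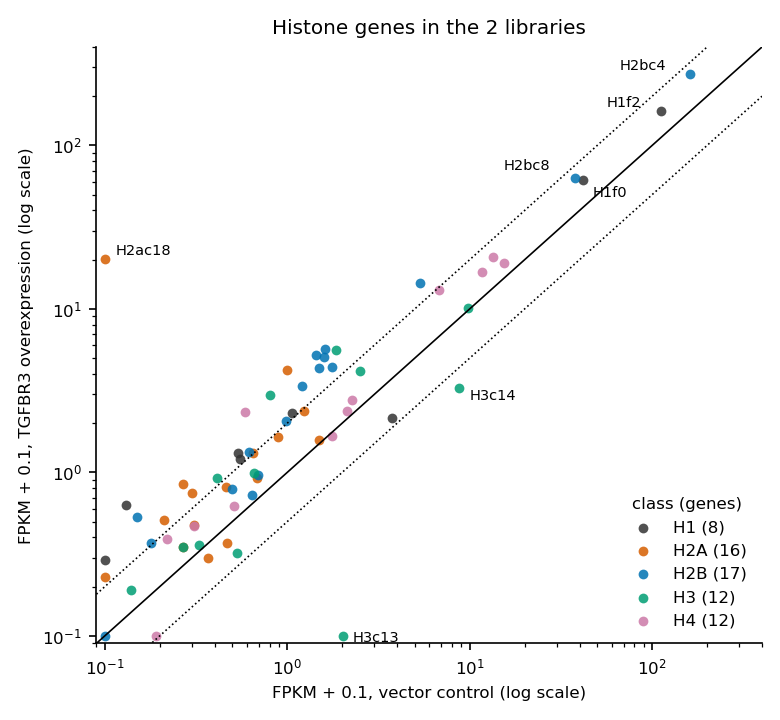
Each point is 1 of the 65 histone genes, with FPKM + 0.1 in the control library on the x axis and in the overexpression library on the y axis, both on log scales and coloured by class. The solid line marks equal values and the dotted lines 2-fold, and the highest genes, H2bc4 at 272.35 against 162.14 and H1f2 at 161.32 against 111.79, lie above the solid line.

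Together the 65 genes took 60859 counts in the overexpression library and 52231 in the control library, which is 977 and 623 CPM, the count scaled to library size. The log2 ratio of these shares was 0.65 (0.63 to 0.66). Only 3 genes, H1f0, H1f2 and H2bc4, held 77.2% and 79.1% of the counts, so that the sum mostly describes them. Of the summed FPKM, H2B held 50.7% in the overexpression library and 46.7% in the control library, and H1 held 30.4% and 34.3%. H4 followed with 10.5% and 11.6%, then H2A with 4.66% and 1.55% and H3 with 3.73% and 5.79%. The H2A sums were 35.27 and 7.20 FPKM, of which H2ac18 alone made 20.05 and 0. The H3 genes on chromosome 3 summed to 13.22 and 20.22, and those on chromosome 13 to 14.95 and 6.62. How reads were assigned to H2ac18 and the chromosome 3 H3 genes, which share sequence with other genes, was not tested. These sums cover only genes of the naming rule and RNA that passed poly(A) selection, so they do not measure all RNA of a class. H2aw, a core H2A gene outside the rule, had an FPKM of 11.19 and 8.20.

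The linker class was carried by H1f2 and H1f0. H1f2, one of the main somatic linker histones, had 17072 and 16114 counts and an FPKM of 161.32 and 111.79, 1.42-fold higher (1.39 to 1.46). H1f0, the linker histone of non-dividing and differentiated cells, had an FPKM of 61.34 and 41.47 and was 1.46-fold higher (1.42 to 1.51). H1f4 had an FPKM of 2.21 and 0.96, at 290 and 172 counts, a fold of 2.27 (1.87 to 2.75). All 3 were higher in the overexpression library, and none reached a log2 ratio of (FPKM + 1) of 1.
H1f10 was the exception of the class. It is a replication-independent linker histone, and its share was 0.55 of that in the control library (0.46 to 0.66), with an FPKM of 2.05 against 3.67. The remaining 4 linker genes had a mean FPKM under 1 and were higher. Among them H1f3 had 613 and 300 counts, a fold of 2.75 (2.39 to 3.16). H1f1 had 27 and 3 counts, a fold of 12.1 (3.72 to 62.3), and the oocyte-expressed H1f8 had 16 and 0 counts.

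H2B was the class with the highest level and the largest number of calls. All 16 of its members above the floor were higher, 15 of them also relative to the median expressed gene, with a median log2 ratio of 0.74, and 6 were at least 2-fold higher. H2bc4 was the highest histone gene of all, at an FPKM of 272.35 and 162.14, which placed it 142nd and 288th among all genes. It was 1.66-fold higher (1.63 to 1.69), and its log2 ratio of 0.74 was 0.45 with the GC trend removed. H2bc8 came next, at 63.03 and 37.60, 1.65-fold higher (1.56 to 1.75). The highest genes of the class therefore differed by less than 2-fold. Of the 31-base words of H2bc8, 56.3% occur in other genes and 46.8% in H2bc4, so the values of H2bc4 and H2bc8 may not be independent.
The 6 called genes were lower in level. H2bc11 had an FPKM of 14.27 and 5.24, with 449 and 225 counts. H2bc7 had an FPKM of 5.61 and 1.51, and H2bc15 of 4.97 and 1.5. These 3 genes had log2 ratios of 1.29, 1.40 and 1.26.
H2bc12 had an FPKM of 4.24 and 1.40, and H2bc6 of 3.29 and 1.11, with log2 ratios of 1.13 and 1.02. The call of H2bc6 was lost relative to the median expressed gene (0.90) and with the GC (0.73) or length trend (0.93) removed. That of H2bc12 was lost on CPM (0.88) and with the length trend removed (0.93), and that of H2bc15 on CPM (0.91). Hist1h2bq, at 5.14 and 1.33, had a log2 ratio of 1.40. Hist1h2br, at 4.30 and 1.66, was the nearest gene under the threshold, with a log2 ratio of 0.99, and H2bc6 was the nearest above it. H2bc9, at 1.96 and 0.88, had a log2 ratio of 0.65. Hist1h2bq and Hist1h2br are near-identical copies that share 98.3% and 89.5% of their 31-base words with other genes, so reads can be split between them. Their summed counts, 1350 and 588, gave a log2 ratio of shares of 1.63 (1.49 to 1.77). H2bc6 overlaps H1f4 on the same strand, and the sum of both gave 1.45 (1.31 to 1.59). The other 7 H2B genes were under a mean FPKM of 1, and 6 of them were higher.

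The H2A genes were low, apart from 1. Of 16 genes, 14 were higher and 2 lower, with a median log2 ratio of 0.34, and 12 were higher relative to the median expressed gene. H2ac4 had an FPKM of 4.13 and 0.90, with 133 and 40 counts, and a log2 ratio of 1.43. H2ac6 had 2.27 and 1.13, H2ac8 1.55 and 0.79, and H2ac7 1.47 and 1.39, with log2 ratios of 0.62, 0.51 and 0.05. For H2ac7 the interval, −0.25 to 0.36, held 0. A further 11 genes had a mean FPKM under 1 and at most 40 counts in a library. H2ac18 was the exception, at an FPKM of 20.05 with 798 counts in the overexpression library and no count in the control library. With the floor of 3 counts put in for 0 this was over 357-fold higher, and the lower end of the counting interval was 290.1. Most of its sequence is shared with a neighbouring gene on chromosome 3, and how its reads were assigned was not tested.

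The H3 class as a whole had a median of 0.08, which turned to −0.04 relative to the median expressed gene and to −0.05 with the trend over exon length removed. By the plain ratio, in the 10 H3 genes above the floor in both libraries, the median was 0.55, against 0.21 over all genes. Their counting intervals lay wholly above 1 in 5, against 47% of genes, and wholly below 1 in 1, against 24%. Most of its chromosome 13 genes were higher, while on chromosome 3 H3c15 was level and H3c13 and H3c14 were lower. Relative to the median expressed gene, 5 of the 12 were higher and 7 lower. The 9 genes on chromosome 13 had a median log2 ratio of 0.28, and 8 were higher, or 5 relative to the median expressed gene, with a median of 0.15. H3c2 had an FPKM of 5.47 and 1.76, with a log2 ratio of 1.23, and H3c11 of 2.88 and 0.70, with 1.19. The call of H3c11 was lost on CPM (0.80) and with the length trend removed. H3c4 had 4.06 and 2.42, with 0.57. The other 6 had a mean FPKM under 1.
The 3 genes on chromosome 3 did not follow them. H3c15, the highest H3 gene, had an FPKM of 10.03 and 9.69, with a log2 ratio of 0.05 (−0.09 to 0.17). H3c14 had 3.19 and 8.62, with 395 and 1454 counts, and a log2 ratio of −1.20. H3c13 had no count in the overexpression library and 87 in the control library. With the floor of 3 counts put in for 0 it was over 21-fold lower. The upper end of the counting interval of its fold was 0.058. Both called lower members thus lie in this cluster.

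The H4 genes were mostly higher, by less than 2-fold. Of 12 genes, 10 were higher and 2 lower, with a median log2 ratio of 0.21, and 8 were higher relative to the median expressed gene. H4c8 had an FPKM of 20.78 and 13.32, Hist1h4m of 18.97 and 15.23, and H4c9 of 16.72 and 11.54. Their log2 ratios were 0.60, 0.30 and 0.50. Hist1h4n had 12.95 and 6.65, with 0.87, and its sum with its copy Hist1h4m gave a log2 ratio of shares of 0.54 (0.40 to 0.67). H4c4 was the only H4 gene of 12 called, at 2.24 and 0.49 with 174 and 52 counts, and a log2 ratio of 1.12 (0.92 to 1.30). This call was lost relative to the median expressed gene (0.99) and with the GC trend removed (0.93). For H4c2, H4c1 and H4c12, all under an FPKM of 3, the interval held 0, with log2 ratios of 0.22, 0.11 and −0.04.

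**Figure D2:**
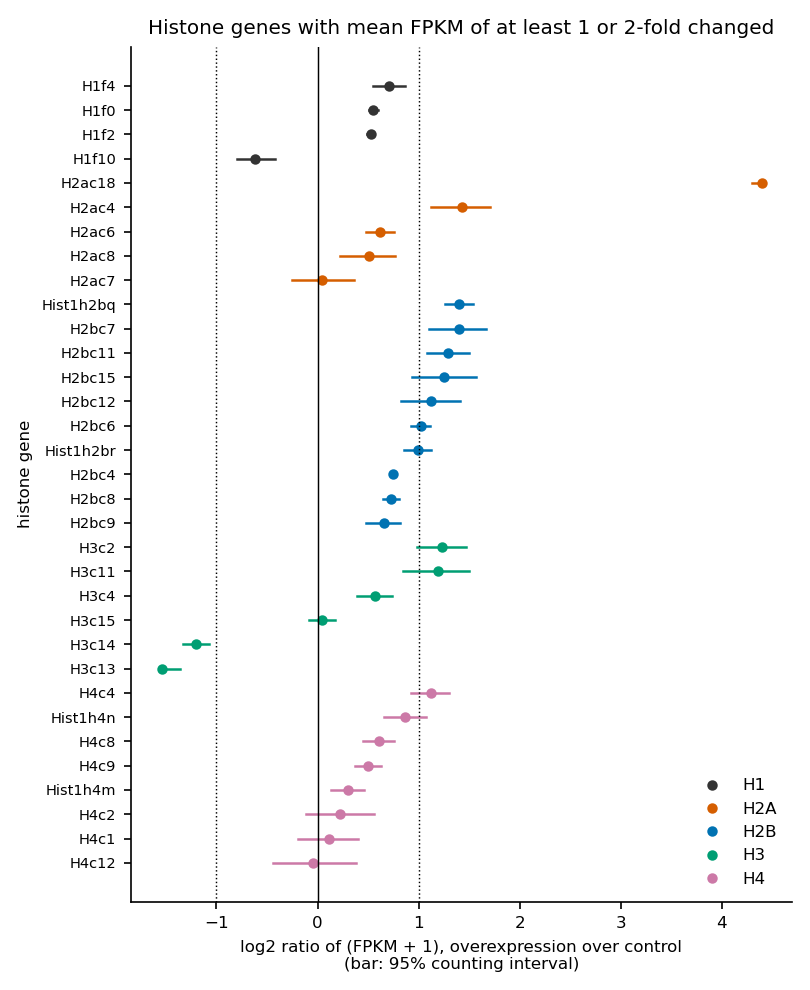
The log2 ratio of (FPKM + 1) is plotted on the x axis for the 33 genes called or averaging an FPKM of 1 or more, ordered by class on the y axis, with 95% counting intervals as bars. H2ac18 lies at 4.40, all 10 H2B genes lie right of 0, and H3c13 and H3c14 lie left of −1.

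The 32 uncalled genes of mean FPKM under 1 were between 0 and 1.24 FPKM in each library. Of these, 27 were higher, 4 lower and 1 equal, with log2 ratios from −0.23 to 0.62. Among the 32 members with a mean FPKM of at least 1, 11 were at least 2-fold higher, where 3.14% of 11213 such genes were called. This filter keeps genes that are high in either library, so the count is a description.

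By position, chromosome 13 held 54 members, with the pseudogene Hist1h2al apart from the rest, and chromosome 3 held 8. On chromosome 13, 50 of 54 genes were higher and 10 were called higher, with a median log2 ratio of 0.50 and a summed log2 ratio of shares of 0.70 (0.68 to 0.72). On chromosome 3 the median was 0.05 over 7 genes above the floor, and the summed ratio was 0.09 (0.01 to 0.18). Relative to the median expressed gene, the chromosome 3 median was −0.08 and the chromosome 13 median 0.38. The chromosome 3 sum includes H2ac18.

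The chromosome 3 genes share their sequence and in part their place. H2ac18 (chr3:96245497-96246082) and H3c14 (chr3:96246685-96248509) lie on the plus strand within Gm20634, a gene of the same strand whose exons cover all 1825 exon bases of H3c14 and 529 of those of H2ac18. Of their 31-base words, 89.7% and 100% occur in Gm20634 or another gene, and 80.6% of those of H3c13. Gm20634 had 2482 and 3315 counts, an FPKM of 12.38 and 12.13. The counts of H2ac18, H3c14 and Gm20634 together were 59.0 CPM in the overexpression library and 56.9 in the control library, a log2 ratio of 0.05 (−0.01 to 0.11). With H3c13 and H3c15 added, the sums were 70.1 and 68.9, a log2 ratio of 0.03 (−0.03 to 0.08). The largest opposite differences among the histone genes lay in these rows. The rows were chosen after their values were seen, and their sums leave out Gm20633. Gm20633, on the opposite strand of H2ac18, had 96 and 946 counts, a log2 ratio of −1.62. How the counting assigned reads to overlapping rows was not tested.

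**Figure D3:**
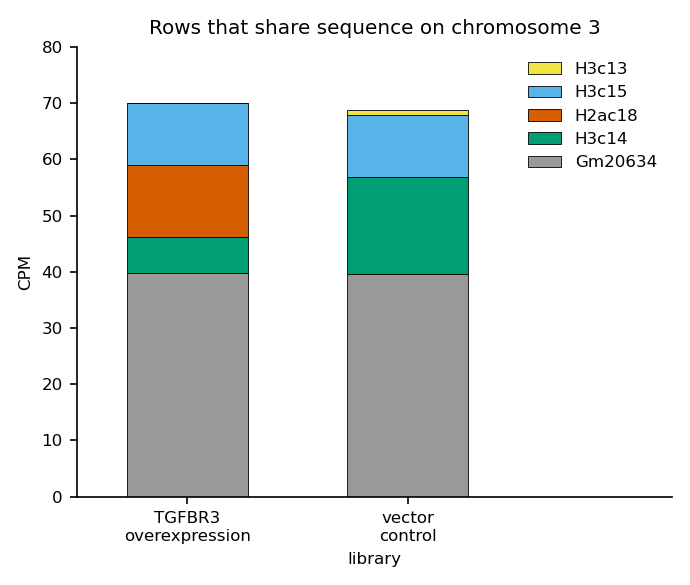
Stacked bars give CPM in each library for 5 rows of chromosome 3 that share sequence. H2ac18 is present in the overexpression bar alone, H3c14 is smaller there, and the full heights are 70.1 and 68.9.

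Sequence sharing was wide among the other members too. The median member had 59.3% of its words in another gene, and 53 of 65 had at least 20%. Of the 12 under 20%, 11 were higher and 1 lower, with a median log2 ratio of 0.55, and H2bc6 and H4c4 were called. Neither call was kept relative to the median expressed gene or with the GC trend removed. Values of single copies within the clusters are therefore less certain than those of genes such as H1f0, H1f2 and H1f10.

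The levels also differed by how the annotated transcripts end. In 17 genes the transcript runs 100 or more bases past the stem-loop, and their median FPKM was 2.24 in the overexpression library and 0.96 in the control library. In 20 genes it ends within 100 bases of the stem-loop, with medians of 1.36 and 0.57. In 9 genes no stem-loop was found and 100 or more bases follow the stop codon, with medians of 2.27 and 1.66, and this group holds H2bc4 and H1f0. The 17 genes with no stem-loop and fewer than 100 bases after the stop codon had medians of 0.65 and 0.37, and 2 pseudogenes were set apart. The 17 and 9 genes with long ends held 36.5% and 46.1% of the summed FPKM in the overexpression library. FPKM divides by annotated length, and reads past an annotated end are not counted, so these levels depend on the annotation.
A poly(A) signal, AATAAA or ATTAAA on the sense strand, was found in the last 40 bases of 8 of the 9 genes with a long end and no stem-loop, and H2bc4 was the exception. It was found in 6 of the 17 that run past the stem-loop, H1f2, H2ac8, H2bc6, H3c14, H4c14 and H4c9. Of the 20 that end near it, H4c8 and Hist1h2bp had one. The median log2 ratio of (FPKM + 1) was 0.53 in genes running past the stem-loop and 0.43 in those ending near it. It was 0.27 in the 9 genes and 0.28 in the 17 without it. The order of the first 2 groups turned without the pseudocount, with medians of 0.94 and 1.10 by the plain ratio. It also turned at a mean FPKM of at least 1, with 0.59 and 1.18. Their summed log2 ratios of shares were 0.53 and 1.24, and the second sum includes H2ac18.

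**Figure D4:**
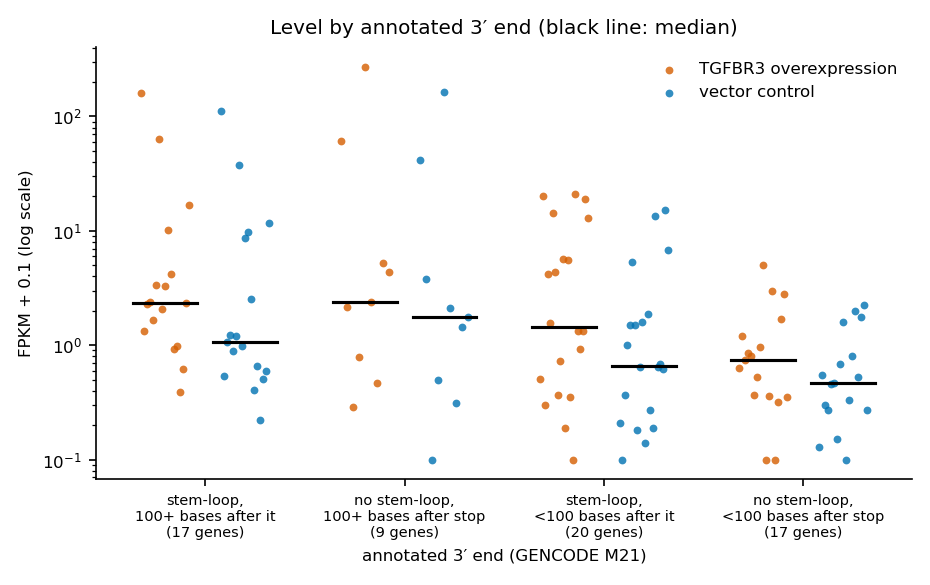
Points give FPKM + 0.1 on a log scale for each histone gene in each library, grouped on the x axis by the annotated 3′ end, with medians as black lines. The highest points, H2bc4 and H1f2, lie in the groups whose transcripts extend 100 or more bases, and the 2 pseudogenes are not drawn.

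Many H2A and H2B genes are arranged head to head and share a promoter region. There were 12 such pairs, with starts 176 to 302 bases apart. The H2B gene had the higher FPKM in 11 of 12 pairs in each library, with a median ratio of 5.07 and 2.96, and only in H2ac14 and H2bc14 was the H2A gene higher. In the pair of H2ac6 and H2bc4 the FPKM was 2.27 against 272.35 in the overexpression library and 1.13 against 162.14 in the control library. For H2ac7 and H2bc7 the log2 ratios were 0.05 and 1.40. For H2ac14 and H2bc14 they were 0.19 and 0.23, so the ratios were close in some pairs and apart in others.

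Promoter sequences are shown for the highest linker gene and for an H2B gene of such a pair. RefSeq (GRCm38.p6) gave promoters of 50 of the 65 genes, and motifs were counted on both strands in all 32851 promoters of 300 bases. The CCAAT box, CCAAT, was in 37.4% of all promoters, in 100% of those of H2A, H2B and H3 genes, in 75% of H1 and in 33.3% of H4. The octamer, ATTTGCAT, known from H2B promoters, was in 1.74% of all promoters, in 50% of H2B, in 45.5% of H2A and in none of the H1, H3 and H4 promoters. The H1 box, AAACACA, was in 7.18% of all promoters and in 50% of H1. The TATA box, TATAAA, was in 13.6% of all and in 40% to 72.7% of a class. Paired genes share these sequences, so their matches are not independent, and a match is no sign of binding. The 250 bases before the start follow, with matches to these motifs, or to their reverse complements, in capitals.
H1f2, chr13:23738557-23738806, plus strand: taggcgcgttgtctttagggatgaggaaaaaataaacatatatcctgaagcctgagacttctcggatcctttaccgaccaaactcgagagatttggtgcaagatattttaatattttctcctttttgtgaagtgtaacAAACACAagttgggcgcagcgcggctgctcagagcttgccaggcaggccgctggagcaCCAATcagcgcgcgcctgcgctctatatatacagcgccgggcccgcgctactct
H2bc8, chr13:23571150-23571399, plus strand: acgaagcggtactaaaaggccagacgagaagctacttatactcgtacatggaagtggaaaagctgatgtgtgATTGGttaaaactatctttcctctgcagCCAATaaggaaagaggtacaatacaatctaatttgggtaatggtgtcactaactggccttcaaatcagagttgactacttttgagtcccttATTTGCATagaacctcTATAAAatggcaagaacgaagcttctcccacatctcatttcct
H1f2 holds 1 CCAAT box and 1 H1 box, and H2bc8 holds 2 CCAAT boxes, 1 octamer and 1 TATA box.

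Replication-independent histone variants, most of which are polyadenylated, were mostly lower. Of 11 genes, 3 were higher and 8 lower, with a median log2 ratio of −0.12, and none was called. H2aj had an FPKM of 17.06 and 34.19, with a log2 ratio of −0.96, or −1.02 by the plain ratio and −1.09 relative to the median expressed gene, and H2az2 of 8.17 and 13.43, with −0.65. H3f3b, which encodes the replacement histone H3.3, had 75.66 and 55.72, with 0.43, and H3f3c had 0.52. The variants thus did not follow the median of the members.

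Genes that make and process histone mRNA had a median near that of all genes. Of 29 genes, 19 were higher and 10 lower, with a median of 0.10, which was −0.02 relative to the median expressed gene, and 2 were at least 2-fold higher. These were Tut7, a terminal uridylyltransferase, at an FPKM of 11.73 and 4.20 with a log2 ratio of 1.29, and Cpsf2, a subunit of the complex that cuts the 3′ end, at 10.93 and 4.79 with 1.04. Slbp, the stem-loop binding protein, had 4.42 and 3.35, with 0.32.
Of 24 histone chaperones, 19 were higher and 5 lower, with a median of 0.24, and none was called. Daxx, which deposits H3.3, had a log2 ratio of 0.78, Set of 0.74 and Npm1 of 0.73. Ipo4, an importin that carries histones into the nucleus, had −0.73, at 19.54 and 33.13.

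The S phase list, of replication, nucleotide synthesis and cell cycle genes, which shares Slbp with the processing list and Mcm2 with the chaperones, had a median near that of all genes. Of 33 genes, 21 were higher and 12 lower, with a median log2 ratio of 0.10, or −0.03 relative to the median expressed gene, and none was called. The largest were Mcm4, at an FPKM of 6.69 and 4.59 with a log2 ratio of 0.46, and Mcm6, at 8.32 and 5.81 with 0.45. Pcna, the sliding clamp of replication, had 22.39 and 17.11, with 0.37.

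The listed RNAs that carry no poly(A) tail were mostly lower. Of 13 such genes above the floor, 11 were lower, with a median log2 ratio of −1.17. At least 2-fold lower were 8 of them, where 0.58% of all genes were called in that direction. A ribosomal RNA row named CT010467 had 156067 and 961935 counts, with a log2 ratio of −2.18. Another row of that name, also among those called, had 887 and 2614, with −1.07. Gm24187 had 15 and 141 counts, with −2.57, and Gm23935 had 6525 and 39548, with −2.15. Rpph1, the RNA of RNase P, had 14 and 85, with −1.27. Several ribosomal rows of this list were chosen because earlier results of these data had shown them. The direction and the counts of the list were partly fixed by that choice. These RNAs were mostly less abundant in the overexpression library, and their part in the histone values was not tested.

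**Figure D5:**
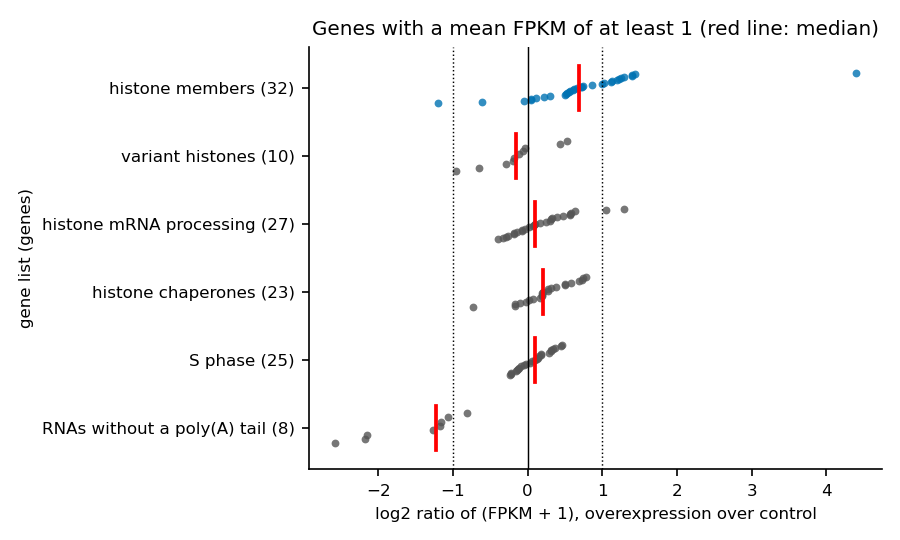
Each point is a gene averaging an FPKM of 1 or more, placed by its log2 ratio of (FPKM + 1) on the x axis and by list on the y axis, with the median of each list in red. The median is 0.68 for the 32 histone genes drawn, 0.10 for S phase genes and −1.22 for RNAs without a poly(A) tail.

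GC content moved with the ratios over all genes. The trend over GC ran from 0.42 in the lowest bin to −0.26 in the highest, and its value at the members was −0.10 at the median. With this trend removed the median of the members was 0.46, and it was 0.30 after the trend over exon length had been taken out.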

How the data were processed

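RNA was selected in rounds on oligo(dT), marked by strand with dUTP and sequenced as paired reads of 150 nt, per the labels. The authors deposited raw counts and FPKM per gene, FPKM being rounded to 2 decimals. The paper names mapping with STAR to mm10 and counting with FeatureCounts, while the submitters' processing notes name cutadapt 1.9, HISAT2 2.2.1, StringTie 2.1.6, DESeq2 and edgeR. The accounts differ, and the annotation release is not given in the sources used here.

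Libraries were compared by the log2 ratio of (FPKM + 1), called at 1 or −1, over genes above 3 counts in either library. No count model was run because each condition has 1 library. Exact Clopper-Pearson intervals at 95% came from the deposited counts with scipy 1.17.1. They cover counting error only, since reads are not independent molecules, and hold none of the spread between cultures. The ratio and its interval were tested on simulated data. Stem-loops, 31-base words and overlaps came from GENCODE M21 transcripts and promoters from RefSeq GRCm38.p6.

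The members and gene lists were chosen with earlier results of these data known. Values are given for members with a mean FPKM of at least 1 or a call and for the highest of each class, for up to 4 genes per other list by size of ratio, and for Tgfbr3. Further genes named (H1f1, H1f3, H1f8, the neighbours on chromosome 3, marker genes, Slbp, the other CT010467 row) and overlapping rows were chosen after their values were seen. Of the 8 histone genes of GENCODE M21 outside the rule, H2aw and H4f16 were analysed and the others were not analysed here.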

Additional observations from a re-analysis of the deposited data

How the results depend on the processing

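No paired analysis was possible because each condition has 1 library, and for the same reason no library could be left out. The count of members at least 2-fold higher, 11 in the report, was 27 with a pseudocount of 0.1, 23 by the plain ratio of count shares and 20 at a 1.5-fold threshold, but 9 when centred and with the GC or length trend removed, and 10 on CPM. With the 12 members of under 20% shared words, a setting chosen after seeing the data, 2 were called higher and 0 lower. The count of lower members, 2 in the report, was 1 by the plain ratio and 1 at a mean FPKM of at least 1. The median log2 ratio, 0.45 in the report, was 0.78 with a pseudocount of 0.1, 0.89 by the plain ratio and 0.68 for members of mean FPKM 1 or more, but 0.33 on CPM, 0.33 centred and 0.30 with the length trend removed. The log2 ratio of the summed shares, 0.65, was 0.57 without the 50 highest genes in the library total, 0.60 without H2bc4 and 0.75 without the linker class. The fewer genes and the smaller pseudocount are the construction of these settings.

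Of the 13 calls, 11 were kept when ratios were centred on the median gene, at 0.13, or when the GC trend was removed, with H2bc6 and H4c4 lost both times. After removal of the length trend 10 were kept, without H2bc6, H2bc12 and H3c11, and on CPM 10 were kept, without H2bc12, H2bc15 and H3c11. The cause was not tested. Over 33 members and 6 alternatives no called member changed sign, while 4 uncalled ones did in 7 values (H2ac7, H3c15 and H4c1 centred and with the length trend removed, H4c12 with the GC trend removed), and 73 of 196 values moved beyond their counting interval. Depth limits the low genes, since 28 members were under an FPKM of 1 in both libraries and 3 counts are 0.0481 and 0.0358 CPM.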

Other observations

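Core histone genes whose symbols fall outside the naming rule were looked at as well. H2aw, a core H2A gene, had 1630 and 1626 counts and an FPKM of 11.19 in the overexpression library and 8.20 in the control library, with a log2 ratio of 0.41. That level is above every H2A member other than H2ac18 in the overexpression library and above every H2A member in the control library. H4f16 had 16 and 6 counts.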
